A study of Mus musculus with 15 samples.

Results

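The 10 genes described here encode receptors and enzymes of the endocannabinoid and N-acyl ethanolamine system: the receptor genes Cnr2, Gpr18 and Gpr55, the 2-arachidonoylglycerol enzyme genes Daglb, Mgll, Abhd6 and Abhd12, and the N-acyl ethanolamine enzyme genes Napepld, Faah and Naaa. They were chosen by symbol, 1 probe set per gene, from 22180 genes with a probe set, and each of the 10 had 1 probe set. RNA came from RAW264.7 cells, an established mouse macrophage line, on 15 arrays in 5 groups of 3. 3 groups received lipopolysaccharide (LPS, 1.0 µg/mL) with hydroxylated docosahexaenoyl ethanolamides (HDHEAs), namely 5.0 µM 13-HDHEA, 5.0 µM 16-HDHEA, or 2.5 µM of each, called the combined treatment. The fourth group received LPS with vehicle, and the fifth received vehicle with buffer in place of LPS. The compounds or vehicle were added 30 min before LPS, ethanol was held at 0.1% in every group, and cells were harvested after 24 h. The 3 arrays of a group come from 3 experiments that also link the groups, because each experiment has 1 array of every group. A single cell line was used, so the groups do not sample different animals.

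Endocannabinoids are lipid messengers made from membrane phospholipids when cells are stimulated. The best known are 2-arachidonoylglycerol and the N-acyl ethanolamine anandamide, which act on cannabinoid receptors and are removed by serine hydrolases and related enzymes. In macrophages this system is known for restraining inflammatory output through the receptor CB2, and hydrolysis of 2-arachidonoylglycerol also supplies arachidonic acid for prostaglandins. HDHEAs are themselves N-acyl ethanolamides of a hydroxylated omega-3 fatty acid, and 13-HDHEA and 16-HDHEA differ in the position of the hydroxyl group.

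The sequences before the start sites of Gpr18, Cnr2 and Daglb are shown because these genes had the largest differences between cells with and without LPS. Each is the 250 bases before an annotated start, 5′ to 3′ on the gene's strand, from RefSeq on GRCm38.p6. RefSeq promoter entries matched 9 of the 10 genes, all but Abhd12, and Cnr2, Mgll and Abhd6 have a pair of starts. The last bases of the Daglb sequence, from 143464484, lie inside the annotated span of that gene. The sequence before the downstream Cnr2 start lies wholly inside the span of Cnr2. 5 motifs were searched on both strands, chosen after the expression values were known, and capitals mark a match.
Gpr18, chr14:121915889-121916138, minus strand: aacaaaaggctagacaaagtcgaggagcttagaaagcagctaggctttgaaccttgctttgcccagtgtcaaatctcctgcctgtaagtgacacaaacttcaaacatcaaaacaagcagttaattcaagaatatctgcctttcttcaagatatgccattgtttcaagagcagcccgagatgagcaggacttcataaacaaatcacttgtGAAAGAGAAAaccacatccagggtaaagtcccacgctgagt
Cnr2, upstream start, chr4:135894939-135895188, plus strand: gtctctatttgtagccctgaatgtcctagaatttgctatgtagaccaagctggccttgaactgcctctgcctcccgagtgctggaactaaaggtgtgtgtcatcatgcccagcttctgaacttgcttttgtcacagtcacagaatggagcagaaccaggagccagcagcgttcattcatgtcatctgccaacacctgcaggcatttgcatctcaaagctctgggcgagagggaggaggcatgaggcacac
Cnr2, downstream start, chr4:135911430-135911679, plus strand: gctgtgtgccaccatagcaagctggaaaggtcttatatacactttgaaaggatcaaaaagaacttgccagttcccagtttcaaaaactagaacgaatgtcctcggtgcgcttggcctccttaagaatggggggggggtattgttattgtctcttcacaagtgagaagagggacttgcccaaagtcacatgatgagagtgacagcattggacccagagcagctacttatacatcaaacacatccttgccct
Daglb, chr5:143464243-143464492, plus strand: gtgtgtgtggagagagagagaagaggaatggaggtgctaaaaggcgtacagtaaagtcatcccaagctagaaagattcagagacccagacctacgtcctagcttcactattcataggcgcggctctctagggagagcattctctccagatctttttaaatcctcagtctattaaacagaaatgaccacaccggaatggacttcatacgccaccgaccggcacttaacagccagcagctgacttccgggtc

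The Gpr18 sequence holds 1 match, GAAAGAGAAA, to the core of the interferon response element (GAAA, any 2 bases, GAAA), on the gene's strand from base -41 to base -32, counted back from the start. Of all 32851 promoter entries, 2.98% hold this core within the same 250 bases. The kappaB consensus, present in 7.25% of entries, was found in both Abhd6 entries and in no other of the 12 entries of these genes. The Abhd6 entries overlap, and the match is the same site in both. The PU.1 site GAGGAAGT (2.44% of entries) was found before the Gpr55 start, which lies inside the annotated span of that gene. Neither the AP-1 site TGANTCA (6.75%) nor the cyclic AMP response element TGACGTCA (1.55%) was found before any of the 9 genes. The Cnr2 and Daglb sequences shown hold no match to any motif searched. A match describes letters only and says nothing of whether a factor binds.

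Expression was deposited on a log2 scale after normalization by the authors with RMA, and the median of an array ranged from 3.62 to 3.69. Genes above the 40th percentile of an array (3.16 to 3.22) on at least 3 arrays were tested, which held for 15468 genes and for all 10 described here. The LPS labels were checked with Tnf, Il1b, Il6 and Nos2, whose summed log2 level was 43.82 to 45.52 on the 12 arrays with LPS and 19.41 to 20.36 on the 3 without it. All 10 macrophage markers, among them Cd68, Csf1r and Spi1, lay above the 40th percentile on every array. Of the lymphocyte markers with a probe set, 6 of 8 averaged below the 40th percentile, as did 5 of 7 neutrophil and 1 of 6 fibroblast markers, and none of the 8 epithelial and endothelial ones. The highest mean of any marker was 4.37 in the lymphocyte list, 4.75 in the neutrophil list, 4.66 in the fibroblast list and 5.61 in the epithelial and endothelial list.

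The first comparison asked how LPS alone moved these genes, with vehicle on both sides. The receptor genes moved in opposite directions. Gpr18, which encodes a G protein-coupled receptor proposed to respond to N-arachidonoyl glycine and related lipids, rose 10.0-fold with LPS, and Cnr2, which encodes the cannabinoid receptor CB2, fell 2.60-fold. Gpr55, a receptor gene for lysophosphatidylinositol, lay near the 40th percentile and did not pass. Since RNA was pooled over each culture, fewer expressing cells and less RNA per cell cannot be told apart.

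Gpr18 (Entrez gene 110168, chromosome 14: 121911434 to 121915888 on GRCm38.p6) read 8.55, 8.71 and 8.77 with LPS and vehicle, against 5.26, 5.49 and 5.30 without LPS. The groups were about 3 log2 units apart and did not overlap. Their means were 8.67 ± 0.114 and 5.35 ± 0.125 (SD, n = 3 each), a log2 difference of 3.32 with SE 0.122 and an adjusted p of 2.35e-10 in limma. The difference was 3.29, 3.22 and 3.47 in the 3 experiments, and the 9 arrays with LPS and an HDHEA overlapped those with LPS and vehicle. Over all 12 arrays with LPS, Gpr18 ran from 8.40 to 8.81, with a median of 8.59.

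Cnr2 (Entrez gene 12802, chromosome 4: 135895189 to 135920219) read 6.10, 5.90 and 5.97 with LPS and vehicle, against 7.29, 7.37 and 7.46 without LPS. Every array with LPS was lower than every array without it, with the 12 LPS arrays between 5.66 and 6.10. The means of 5.99 ± 0.103 with LPS and vehicle and 7.37 ± 0.0864 without LPS differed by -1.38 (SE 0.11, adjusted p = 4.09e-07 in limma). In the 3 experiments the difference was -1.18, -1.46 and -1.49.

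Gpr55 (Entrez gene 227326, chromosome 1: 85933221 to 85991583) read 3.54, 3.74 and 3.43 with LPS and vehicle, against 3.08, 3.21 and 3.43 without LPS. The groups overlapped at their edges, and 1 array without LPS lay below its 40th percentile. The log2 difference was 0.33 (95% interval 0.02 to 0.64, adjusted p = 0.113 in limma), and in the third experiment it was -0.00179.

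**Figure D1:**
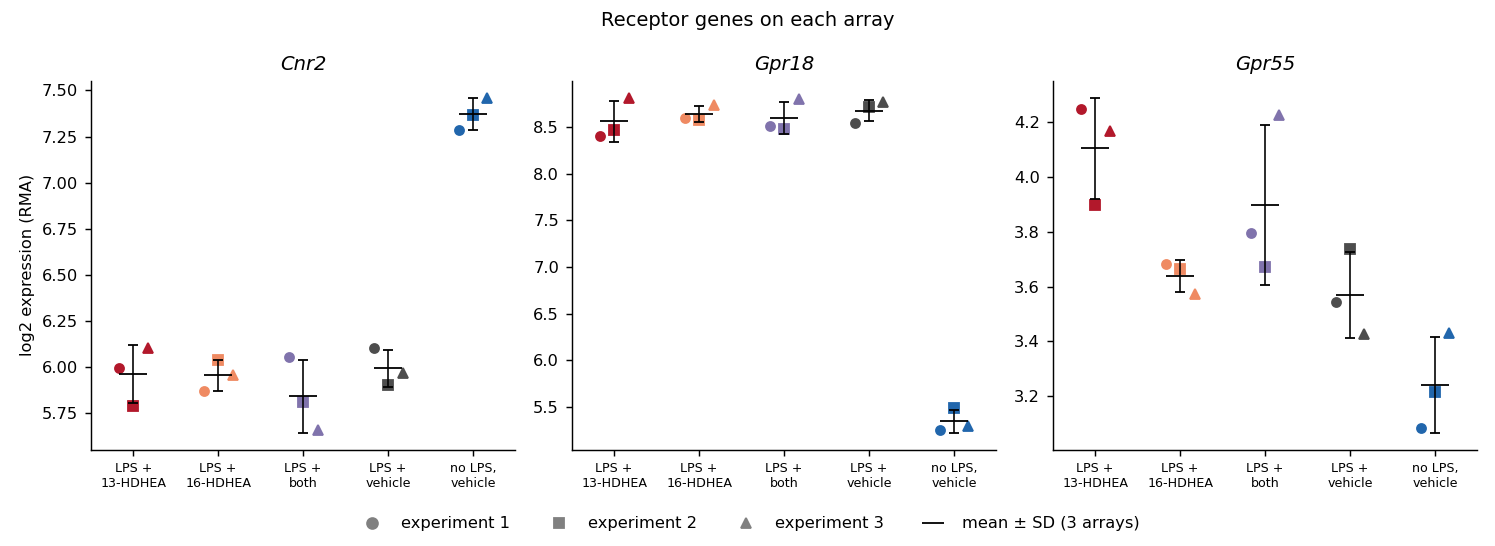
Log2 expression (RMA) of Cnr2, Gpr18 and Gpr55 on each of 15 arrays, by group (x axis) and experiment (marker shape), with black bars for the mean ± SD of 3 arrays and a separate y axis for each gene. Cnr2 sits between 5.66 and 6.10 in the 4 LPS groups and above 7.28 without LPS, Gpr18 shows the opposite order, and Gpr55 has its highest mean with 13-HDHEA, at 3.90 to 4.25, a range that 1 array of the combined treatment shares.

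Among the 2-arachidonoylglycerol enzymes, Daglb and Abhd12 fell with LPS, while Abhd6 and Mgll did not pass. Daglb encodes diacylglycerol lipase beta, which makes 2-arachidonoylglycerol in macrophages. Mgll, Abhd6 and Abhd12 encode hydrolases that break it down, and Abhd12 is also known as a lysophosphatidylserine lipase.

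Daglb (Entrez gene 231871, chromosome 5: 143464484 to 143504442) read 6.99, 7.10 and 7.22 with LPS and vehicle, against 8.54, 8.49 and 8.53 without LPS. The groups did not overlap, and the 3 arrays without LPS lay close together. Daglb averaged 7.10 ± 0.114 with LPS and vehicle and 8.52 ± 0.0268 without LPS (SD, n = 3 each). This was a 2.67-fold decrease (log2 difference -1.41, SE 0.0924, adjusted p = 6.22e-08 in limma), and the 3 experiments gave -1.55, -1.39 and -1.31. Daglb also had the smallest spread of these 10 genes within groups, with a pooled SD of 0.102.

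Abhd12 (Entrez gene 76192, chromosome 2: 150832493 to 150904779) read 8.97, 8.93 and 9.14 with LPS and vehicle, against 9.82, 9.93 and 10.03 without LPS. All 12 arrays with LPS, from 8.93 to 9.28, were below the 3 without it. The log2 difference was -0.92 (SE 0.0979, a 1.89-fold decrease, adjusted p = 6.13e-06 in limma), at -0.85, -1.004 and -0.89 in the 3 experiments.

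Abhd6 (Entrez gene 66082, chromosome 14: 8002888 to 8056773) read 6.24, 6.23 and 5.67 with LPS and vehicle, against 6.08, 6.09 and 5.83 without LPS. In both groups the array of the third experiment was the lowest. The log2 difference was 0.05 (95% interval -0.25 to 0.35, adjusted p = 0.852 in limma). Mgll (Entrez gene 23945, chromosome 6: 88724412 to 88828360), which encodes monoacylglycerol lipase, read 3.46, 3.38 and 3.27 with LPS and vehicle, against 3.49, 3.67 and 3.29 without LPS. It stayed close to the 40th percentile throughout, at percentile 38.08 to 50.49 of the 15 arrays, and fell below it on 1 array with 13-HDHEA and 1 with 16-HDHEA. Its log2 difference of -0.11 (95% interval -0.35 to 0.12, adjusted p = 0.501) is therefore one between dim values, which RMA compresses.

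The N-acyl ethanolamine enzymes split 3 ways. Napepld, which encodes the phospholipase D that releases N-acyl ethanolamines from their phospholipid precursors, fell. Faah, the gene of the fatty acid amide hydrolase that breaks them down, rose by a small amount. Naaa, the gene of the lysosomal acid amidase that hydrolyses N-palmitoyl ethanolamine in macrophages, did not pass.

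Napepld (Entrez gene 242864, chromosome 5: 21662901 to 21701622) read 7.22, 7.25 and 7.36 with LPS and vehicle, against 7.72, 7.89 and 8.04 without LPS. The groups did not overlap, and the 9 arrays with an HDHEA, at 6.90 to 7.51, were also below those without LPS. The log2 difference was -0.61 (SE 0.139, a 1.53-fold decrease, adjusted p = 0.00376 in limma), with -0.50, -0.64 and -0.69 in the 3 experiments.

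Faah (Entrez gene 14073, chromosome 4: 115996668 to 116018837) read 4.48, 4.497 and 4.51 with LPS and vehicle, against 3.995, 4.26 and 3.94 without LPS. All 12 arrays with LPS, from 4.48 to 4.99, were above the 3 without it. The log2 difference was 0.43 (SE 0.129, a 1.35-fold increase, adjusted p = 0.0203 in limma), and 0.49, 0.24 and 0.57 in the 3 experiments. The call was lost without replicate 1 or replicate 3 of the cells without LPS (adjusted p = 0.0679 and 0.082) and without replicate 2 or replicate 3 of the vehicle group (adjusted p = 0.0505 and 0.0534). 4 arrays with LPS hold the identical Faah value of 4.511.

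Naaa (Entrez gene 67111, chromosome 5: 92257660 to 92278181) read 8.37, 8.08 and 8.61 with LPS and vehicle, against 8.43, 8.09 and 8.12 without LPS. The groups overlapped, and Naaa had the widest spread of the 10 genes within groups, with a pooled SD of 0.256. The log2 difference was 0.14 (95% interval -0.27 to 0.54, adjusted p = 0.661 in limma), where the first and second experiments gave -0.06 and -0.01 and the third gave 0.48.

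**Figure D2:**
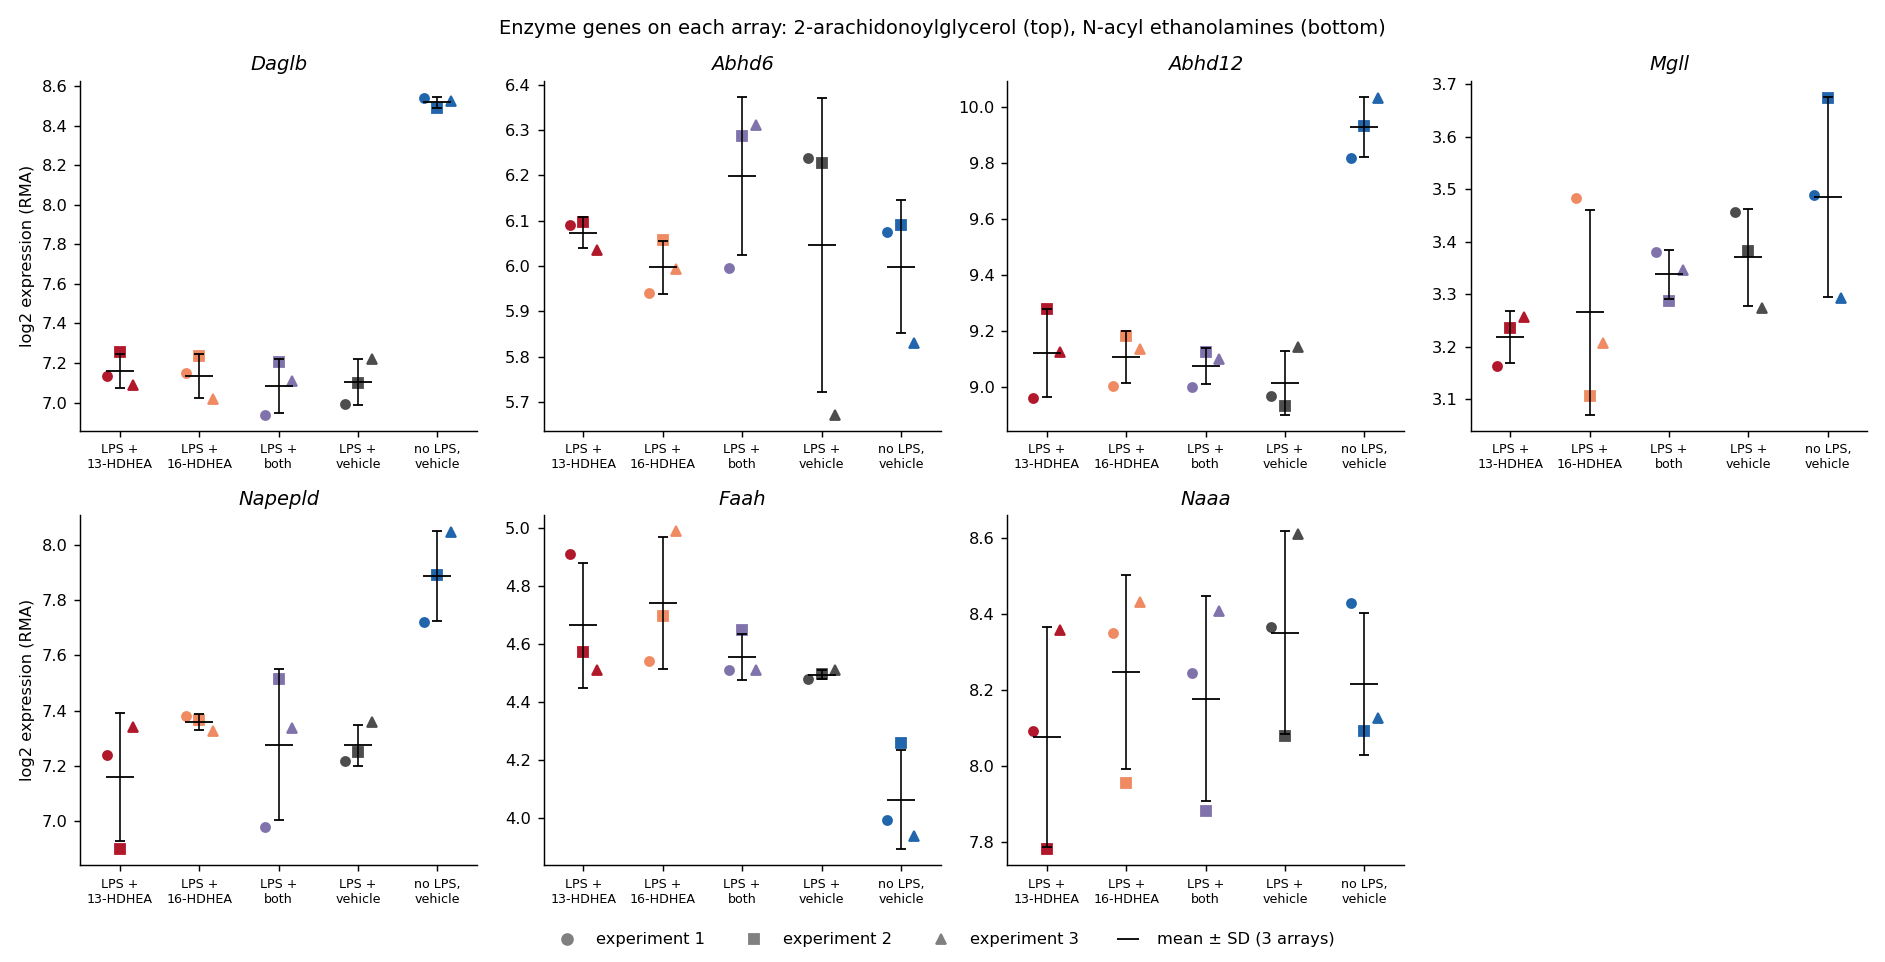
Log2 expression (RMA) of the 7 enzyme genes on each of 15 arrays, by group and experiment, with black bars for the mean ± SD of 3 arrays and a separate y axis for each gene. Daglb, Abhd12 and Napepld are lower on all 12 arrays with LPS than on the 3 without it, and Faah is higher, while Abhd6, Mgll and Naaa overlap.

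In all, 6 of the 10 genes passed with LPS, 2 higher (Gpr18 and Faah) and 4 lower (Cnr2, Daglb, Abhd12 and Napepld), where 29.8% of all genes tested passed, 13.5% higher and 16.3% lower. The median log2 difference of the 10 was -0.03, against 0.000209 over all genes, and their median size without regard to sign was 0.52, against 0.20. The groups with LPS and vehicle and without LPS did not overlap for the same 6 genes, and did not for 41.2% of all genes tested. The same 6 also separated all 12 arrays with LPS from the 3 without it, but the share of all genes tested that did so was not counted. The summed log2 level of the 10 macrophage markers was also higher with LPS, mostly through Adgre1 (log2 difference 4.498). It was 106.9 to 108.6 with LPS and vehicle, against 99.87 to 101.8 without LPS. Taken singly, 5 of these markers had a positive difference and 5 a negative one, with a median of -0.00407, and 4 passed as higher and 1 as lower. The summed log2 level of the 7 neutrophil markers was 22.23 to 24.61 with LPS and vehicle against 19.6 to 21.63 without LPS, while 5 of the 7 averaged below the 40th percentile. Of the 4 tested, S100a8 (log2 difference 1.30, adjusted p = 0.00536 in limma) and Mmp8 (at least 2.09-fold, taken against the 40th percentile, adjusted p = 0.0115) were higher and 2 did not pass. The Mmp8 call was lost without vehicle replicate 1 (adjusted p = 0.0585) or without replicate 2 of the cells without LPS (0.053). The 6 fibroblast markers summed to 20.95 to 21.16 with LPS and vehicle against 19.04 to 20.09 without LPS, and 1 of the 5 tested, Pdgfra, passed narrowly as higher (0.96, adjusted p = 0.0472 in limma). The Pdgfra call was lost without vehicle replicate 1 or 2 (adjusted p = 0.127 and 0.14) or without replicate 1 or 2 of the cells without LPS (0.104 and 0.19). Of the 4 lymphocyte markers tested, 1 passed as lower and 0 as higher. Of the 8 epithelial and endothelial markers tested, 1 passed as higher and 1 as lower. S100a8, Mmp8 and Pdgfra are named here after their values were seen. The part of these markers in the changes above was not tested.

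**Figure D3:**
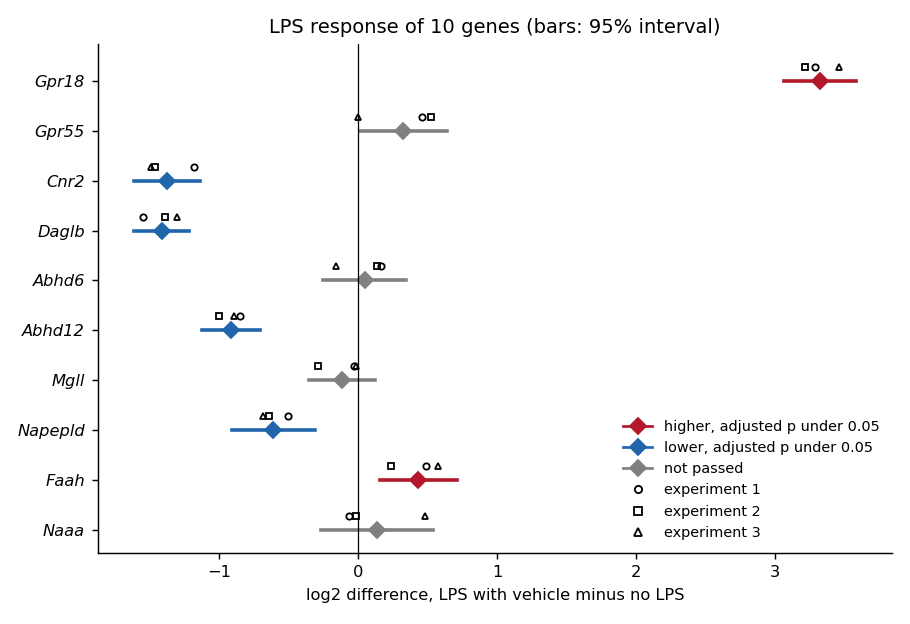
Log2 difference between LPS with vehicle and no LPS for each of the 10 genes (diamonds) with its 95% interval (bars), and the difference within each experiment (open markers). Gpr18 stands at 3.32 and Faah at 0.43, Cnr2, Daglb, Abhd12 and Napepld lie between -1.41 and -0.61, and the grey genes did not pass.

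Of 24 further genes of the pathway, 20 were tested, of which 4 were higher and 3 lower with LPS in limma, with a median log2 difference of -0.04. These 7 of 20 stand beside 29.8% of all genes tested. With experiment as a block, 10 of the 20 passed, 5 in each direction, beside 34.3% of all genes tested. Gpr119, Trpv1, Gdpd1 and Plaat1 were not tested. Ptgs2, the inducible cyclooxygenase that also oxygenates anandamide and 2-arachidonoylglycerol, had 12.47, 12.19 and 12.22 with LPS and vehicle, against 8.06, 7.30 and 7.59 without LPS. It rose by 4.64 on the log2 scale (adjusted p = 8.29e-11), the largest difference of this list in either direction. Gde1, the gene of a glycerophosphodiesterase on an alternative route to N-acyl ethanolamines, rose by 0.54 (adjusted p = 0.000684), and the calcium channel gene Trpv2 rose by 0.32 (adjusted p = 0.00282). Plaat3, an acyltransferase and phospholipase gene, rose by 0.34 (adjusted p = 0.0321). That call was lost without any 1 of the vehicle replicates 1, 2 and 3 (adjusted p = 0.07, 0.0508 and 0.0991) or of replicates 1 and 2 of the cells without LPS (0.0565 and 0.141). Plaat3 was dim, at a mean array percentile of 51.48 with LPS and vehicle and 44.65 without LPS. Its mean was 3.71 with LPS and vehicle and 3.38 without LPS. With LPS it was 3.61 with 13-HDHEA, 3.36 with 16-HDHEA and 3.55 with the combined treatment.

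Ptpn22, a phosphatase gene proposed to act in another route to anandamide in macrophages, read 7.78, 7.69 and 7.28 with LPS and vehicle, against 8.78, 8.79 and 8.67 without LPS. It fell by 1.17 on the log2 scale (SE 0.136, adjusted p = 1.41e-05 in limma), and every array with LPS was below those without it. Pparg, the gene of a nuclear receptor for fatty acids and some of their ethanolamides, read 2.75, 2.93 and 2.82 with LPS and vehicle, below the 40th percentile on all 3 arrays, against 3.64, 4.58 and 3.71 without LPS. The array of the second experiment was the highest of those without LPS. Pparg was at least 1.75-fold lower with LPS, taken against that percentile, with an adjusted p of 0.000451 in limma for the measured difference. Without replicate 2 of the cells without LPS the bound was 1.42-fold, and the call held (adjusted p = 0.000234). The third lower gene, Fabp5, a fatty acid carrier gene named here after its values were seen, passed narrowly (log2 difference -0.21, adjusted p = 0.0494). That call was lost on leaving out any 1 of 5 arrays, namely vehicle replicate 1 or 2 (adjusted p = 0.162 and 0.117) or, without LPS, replicate 1, 2 or 3 (0.068, 0.135 and 0.0977), but it held without vehicle replicate 3. Cnr1, the gene of the cannabinoid receptor CB1, also named after its values were seen, read 3.66, 3.05 and 2.88 with LPS and vehicle, against 3.02, 3.15 and 3.15 without LPS, around the 40th percentile in both.

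The genes with the most similar profiles over the 15 arrays were found by Pearson's correlation, given as a description, since the LPS step dominates every such profile and the 15 arrays share 3 experiments. Gpr18 was closest to Gbp7 (r = 0.998), Marco (0.998) and Mlkl (0.997), and 3.01% of genes outside the lists had r above 0.95 with it. Gbp7 encodes an interferon-induced guanylate-binding protein, Marco a scavenger receptor and Mlkl the kinase-like effector of necroptosis. Cnr2 was closest to Cxcr4 (0.983), 5031439G07Rik (0.982) and Cdc25b (0.982), with 1.11% of genes above 0.95. Cxcr4 encodes a chemokine receptor and Cdc25b a phosphatase of the cell cycle. Daglb was closest to Lbr (0.993), Mef2c (0.991) and Dnmt1 (0.99), with 2.67% above 0.95, which encode a nuclear envelope receptor, a transcription factor and a DNA methyltransferase.

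The next comparisons asked whether the HDHEAs moved these genes in cells with LPS. None of the 10 passed with 13-HDHEA in limma, where 0.00646% of all genes tested did (1 gene). At an unadjusted p under 0.05 there was 1 of the 10, Gpr55, against 4.27% of all genes. With experiment as a block there were 2 of the 10, Gpr55 and Naaa, against 963 of 15468 genes, and again none of the 10 passed. Gpr55 read 4.25, 3.90 and 4.17 with 13-HDHEA, against 3.54, 3.74 and 3.43 with vehicle. The groups did not overlap, and the difference was positive in 3 of 3 experiments, at 0.70, 0.16 and 0.74. The log2 difference of 0.54 (95% interval 0.22 to 0.85) had an unadjusted p of 0.00246 and failed the correction over all genes, with an adjusted p of 0.953 in limma, and 0.667 with experiment as a block. Mgll was the other of the 10 genes whose arrays did not overlap, lower with 13-HDHEA at 3.16, 3.24 and 3.26, against 3.46, 3.38 and 3.27 with vehicle, where 7.93% of all genes tested did not overlap.

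Gpr18 read 8.40, 8.46 and 8.81 with 13-HDHEA, against 8.55, 8.71 and 8.77 with vehicle, a log2 difference of -0.11 (95% interval -0.38 to 0.15). Cnr2 read 6.00, 5.79 and 6.10 with 13-HDHEA, against 6.10, 5.90 and 5.97 with vehicle, a difference of -0.03 (-0.27 to 0.21). For both receptor genes the ranges overlapped, and a change of the size seen with LPS lies far outside these intervals. Daglb differed by 0.06 (-0.14 to 0.25), Abhd12 by 0.11 (-0.10 to 0.32), Napepld by -0.11 (-0.41 to 0.18) and Faah by 0.17 (-0.11 to 0.45). The intervals of all 10 genes were at most 0.405 wide on either side. The median log2 difference of the 10 genes was -0.00102 with 13-HDHEA, -0.00295 with 16-HDHEA and -0.00888 with the combined treatment, against -0.0104, -0.000589 and -0.00379 over all genes tested.

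Naaa levels followed the experiment in the groups with LPS. Without LPS, the second experiment was the lowest (8.09), but the first was the highest (8.43). The SE of the Naaa difference was 0.188 without the experiment as a block and 0.106 with it. In each of the 4 LPS groups, the array of the second experiment was the lowest, at 7.78 with 13-HDHEA, 7.96 with 16-HDHEA, 7.88 with the combined treatment and 8.08 with vehicle, and that of the third was the highest, at 8.36, 8.43, 8.41 and 8.61 in the same groups. Within experiments, Naaa was lower with 13-HDHEA than with vehicle by a similar amount each time, with differences of -0.27, -0.30 and -0.25. The log2 difference of -0.27 had an interval of -0.68 to 0.13 without the block. With experiment as a block the interval was -0.51 to -0.04, with an unadjusted p of 0.0249 and an adjusted p of 0.772 in limma, so that it failed the correction in both fits. With 16-HDHEA the 3 differences from vehicle were -0.02, -0.12 and -0.18, and with the combined treatment -0.12, -0.20 and -0.20. These treatments share the vehicle arrays, and the adjusted p of both was 1.00 in limma.

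With 16-HDHEA, none of the 10 genes passed in limma, nor did any other gene (0%), and none had an unadjusted p under 0.05, against 2.97% of all genes tested. The differences ran from -0.11 for Mgll to 0.25 for Faah. Faah read 4.54, 4.70 and 4.99 with 16-HDHEA, against 4.48, 4.497 and 4.51 with vehicle. All 3 arrays with 16-HDHEA were above those with vehicle, the only one of the 10 genes without overlap here, where 7.16% of all genes did not overlap. The interval of its difference was -0.03 to 0.52, and the adjusted p was 1.00. Gpr55 read 3.68, 3.66 and 3.57 with 16-HDHEA, within the range of the vehicle arrays, and differed by 0.07 (-0.24 to 0.38).

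With the combined treatment, again none of the 10 genes passed in limma and no other gene did (0%). Gpr55 was the 1 gene of the 10 at an unadjusted p under 0.05 (3.48% of all genes), with 3.79, 3.67 and 4.23, against 3.54, 3.74 and 3.43 with vehicle. These arrays overlapped, and the third experiment, at 0.80, gave most of the log2 difference of 0.33 (95% interval 0.02 to 0.64, adjusted p = 1). None of the 10 genes had groups without overlap, against 6.42% of all genes tested. Taking the mean of the 3 HDHEA treatments against vehicle, none of the 10 and no other gene passed (0%), and differences ran from -0.18 for Naaa to 0.31 for Gpr55. Gpr55 was the 1 gene of the 10 with an unadjusted p under 0.05, against 3.79% of all genes, and its adjusted p was 1.00 in limma.

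The isomers were compared at the same dose and time. None of the 10 genes differed between 13-HDHEA and 16-HDHEA after correction in limma, where 0.00646% of all genes did (1 gene), and 1 of the 10 had an unadjusted p under 0.05, against 3.10% of all genes. This was Gpr55, at 4.25, 3.90 and 4.17 with 13-HDHEA and 3.68, 3.66 and 3.57 with 16-HDHEA. The groups did not overlap, as for 6.59% of all genes, and the differences in the 3 experiments were 0.57, 0.23 and 0.60. The log2 difference of 0.46 (95% interval 0.15 to 0.77) had an unadjusted p of 0.00642 and an adjusted p of 1.00. Both comparisons of Gpr55 share the 13-HDHEA arrays. For the other 9 genes the difference lay between -0.20 (Napepld, -0.50 to 0.10) and 0.08 (Abhd6, -0.22 to 0.38).

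Of the 20 further pathway genes tested, none passed in any HDHEA comparison in limma. In limma, Plaat5, another acyltransferase gene, named here after its values were seen, differed by 0.29 with 13-HDHEA, with an unadjusted p of 0.0249 and an adjusted p of 1.00. It was the 1 gene of the 20 with an unadjusted p under 0.05 there, beside 4.27% of all genes tested. With 13-HDHEA, 2 of the 20 had groups without overlap, beside 7.93% of all genes tested. Plaat3 read 3.36, 3.21 and 3.51 with 16-HDHEA, against 3.70, 3.66 and 3.78 with vehicle. These groups did not overlap, and the log2 difference of -0.36 had an unadjusted p of 0.00605 and an adjusted p of 1.00 in limma. Plaat3 was the 1 gene of the 20 with an unadjusted p under 0.05 with 16-HDHEA, beside 2.97% of all genes tested. It was also the 1 gene of the 20 without overlap there, beside 7.16%. Plaat3 also differed by 0.25 between 13-HDHEA and 16-HDHEA, and by -0.21 between the mean of the 3 treatments and vehicle, each with an adjusted p of 1.00 in limma. At an unadjusted p under 0.05 there was 1 of the 20 in each, beside 3.10% and 3.79% of all genes tested. These Plaat3 comparisons share the 16-HDHEA arrays, and those against vehicle share the vehicle arrays with the LPS comparison.

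**Figure D4:**
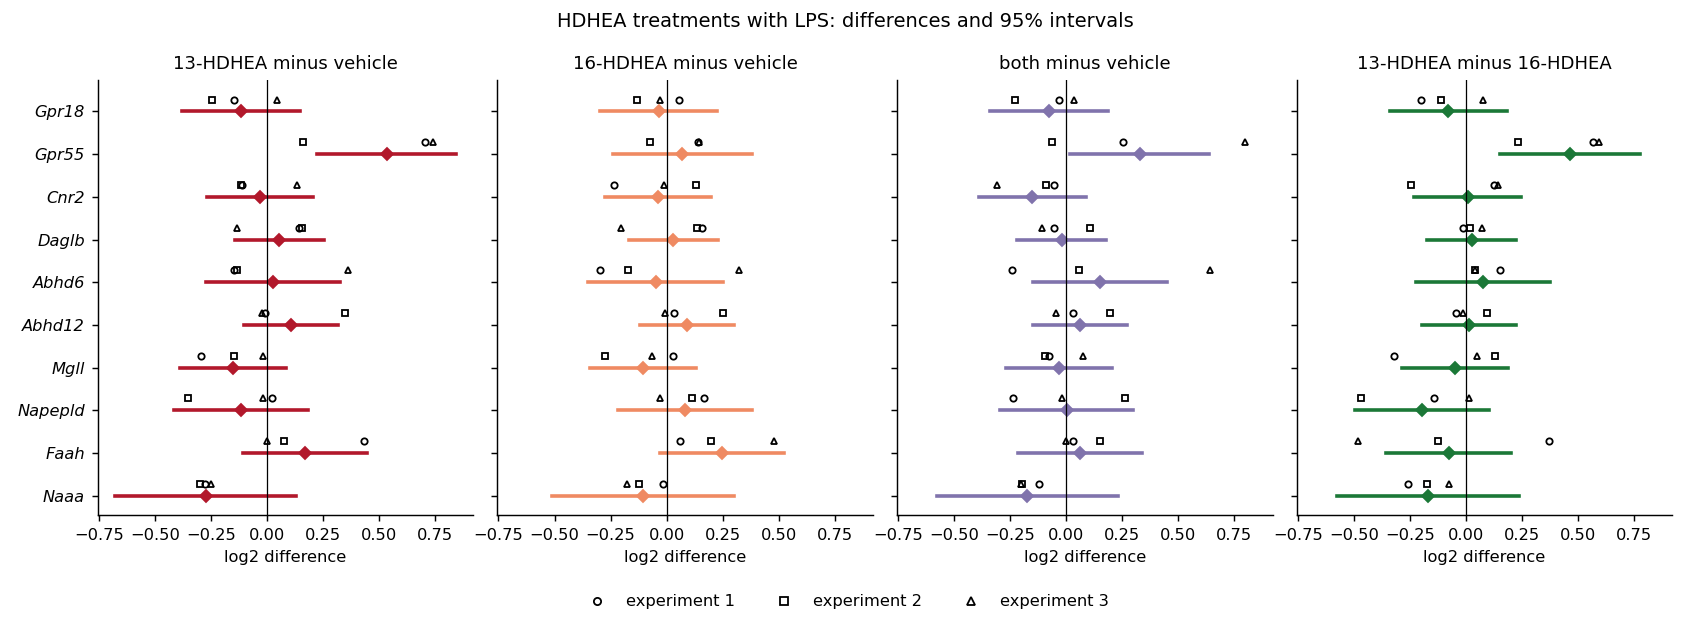
Log2 differences of the 10 genes for 13-HDHEA, 16-HDHEA and the combined treatment against vehicle, and for 13-HDHEA against 16-HDHEA, all with LPS (diamonds, 95% intervals as bars, single experiments as open markers). Only the Gpr55 intervals with 13-HDHEA (against vehicle and against 16-HDHEA) and with the combined treatment leave out 0, and no gene passed after correction over all genes.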

How the data were processed

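Total RNA of RAW264.7 cells was labelled for Affymetrix whole-transcript arrays, per the labels' protocols. The values were deposited on a log2 scale, 1 per probe set, and were made by the authors with RMA, per the submitters' processing notes. The version of RMA and the chip definition were not given in the sources. Quantile normalization within RMA hides shifts shared by most genes, and no detection p-values were used. The platform's gene table gave 1 symbol to 23521 of 41345 probe sets, and for genes with several, the probe set with the highest mean was kept.

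The fit was limma 3.58.1 in R 4.3.3 (lmFit, eBayes) on group means over all 15 arrays, two-sided, adjusted by Benjamini-Hochberg over 15468 genes, with calls under 0.05. It was first tested on simulated data for the LPS comparison alone. That simulation used independent noise without an experiment effect, and did not cover the HDHEA comparisons. Differences are the first group minus the second. The number of arrays, 3 a group, limits precision. Per the labels, arrays with the same replicate number come from 1 experiment and are paired. Over these 30 pairs, the correlation of deviations from the group mean was 0.0835 to 0.404, and above 0.1 in 28. All 15 arrays correlated best with an array of their own replicate number. The main fit leaves this pairing out. The fit with experiment as a block was an alternative, as were other filters, normalizations, probe set rules and leaving out arrays.

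All 10 members are named, with the 6 other pathway genes of smallest p under LPS and 3 genes most like Gpr18, Cnr2 and Daglb. Members and lists were chosen with earlier results of these data known.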

Additional observations from a re-analysis of the deposited data

How the results depend on the processing

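Across the 6 comparisons and the alternative settings, 884 of 888 recomputed differences of the 10 genes stayed on their side of the threshold. The 4 exceptions are the Faah calls given above. In the HDHEA comparisons none of the 10 had passed (lowest adjusted p = 0.953 in limma), so staying uncalled there says little. No called difference changed sign, while 40 uncalled ones did (all between -0.16 and 0.06 after the change). With LPS, the count of the 10 genes called was 6 under every alternative except leaving out 1 array, where it ranged from 5 to 6. Gpr55 and Mgll were not tested under the 60th percentile filter. With arrays median centred, 2534 genes passed as higher with LPS and 2082 as lower, against 2089 and 2527 in the main fit. The excess of lower genes over all genes tested therefore depends on the normalization. With experiment as a block (replicate block) 5313 genes passed with LPS, against 4616 without it, and the block changed no call among the 10 genes. The single gene called with 13-HDHEA against vehicle and against 16-HDHEA was Mnd1 in both, named here after its values were seen. When the fit held the compared groups alone, 0 genes passed in either comparison. Leaving out 1 array gave 1 to 2 genes against vehicle (2 without vehicle replicate 1) and 0 to 1 against 16-HDHEA (0 without replicate 2 or 3 of either compound). Among the other named pathway and marker genes, alternatives chosen after the data were seen kept 115 of 138 calls. Beside the arrays named above, the Plaat3 call was lost with only the groups compared (adjusted p = 0.0522) and with trend and robust moderation (0.0649), and the Fabp5 call with only the groups compared (0.114), median centring (0.158), no filter (0.0884) and the mean of probe sets (0.11), and the Pdgfra call with no filter (0.0616). Gpr55, Mgll, Cnr1 and Pparg were below the 40th percentile on at least 1 array, so that signal limits their differences.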

Other observations

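In the deposited table, 33.8% of probe sets (13979) hold at least 1 value that is repeated exactly between arrays. Among the 10 genes this was seen only in Faah, where 4 arrays read 4.511: vehicle replicate 3, 13-HDHEA replicate 3, and combined treatment replicates 1 and 3.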
